A study of Mus musculus with 2 samples.

Results

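The cytosolic ribosomal protein genes were the protein-coding genes whose symbol is Rpl or Rps with a number (an a, x or y, an l and a last digit allowed), together with Rplp0, Rplp1, Rplp2 and Rpsa. 84 of the 43346 Ensembl genes in the tables met this rule, and no measured value entered it. They were divided into 46 main genes of the large subunit, with the 3 stalk genes among them, 31 main genes of the small subunit and 7 paralogs, which are further genes for a related form of a main gene's protein. The symbol rule also met 5 genes annotated as processed pseudogenes (Rps4l, Rps12l1, Rpl6l, Rps3a2 and Rps3a3), which were not counted as members. The material was hindbrain of B6NCrl mouse embryos aged 13.5 days, healthy, with males and females pooled and no treatment or engineered allele named in the labels. It came as 2 libraries, labelled biological replicates 1 and 2, each from 10 ng of total RNA longer than 200 nt. Both carry 1 donor label with separate biosample labels, and nothing in the labels says how many embryos were pooled, so how far their spread is biological cannot be told. They form 1 group, so genes were compared with each other, and the libraries with each other, but no condition was compared.

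A cytosolic ribosome is built from a large and a small subunit, each of ribosomal RNA clothed by proteins that are mostly present once per ribosome. The small subunit decodes the messenger RNA, and the large subunit joins the amino acids and lets the growing chain leave through a tunnel. Messenger RNAs of these proteins are among the most abundant of dividing cells, and typically begin with a C followed by a run of pyrimidines (the terminal oligopyrimidine tract), through which growth signals regulate their translation. Mammalian ribosomal protein genes have left many processed pseudogenes, copies of the spliced messenger RNA inserted elsewhere in the genome, which can be nearly identical to the parent gene.

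Depth was 33080194 and 38756411 estimated counts over all rows of replicates 1 and 2. Of the counts on Ensembl genes, the 84 members held 1.53% in replicate 1 (95% Wilson interval 1.52% to 1.53%) and 1.57% in replicate 2 (1.57% to 1.58%), which covers counting error only. The hindbrain label was checked with 8 hindbrain genes, all at 1 TPM (a gene's share of all transcripts after correction for length, scaled to a fixed total) or more in both libraries, led by Gbx2 at 45.0 and 44.8 TPM. Of 8 forebrain genes, 2 were at that level in both, Neurod6 at 50.9 and 65.0 TPM, above each of the hindbrain genes, and Lhx2 at 19.19 and 17.98 TPM. Lists of other cell types did move between the libraries. The summed TPM of 9 choroid plexus genes was 649.7 in replicate 1 and 1224 in replicate 2, that of 9 meningeal and mesenchymal genes 758.5 and 588.6, and that of 10 erythroid genes 12968 and 14026, and none of these genes was at 0 in both. In bulk RNA, fewer cells of a type and less RNA per cell cannot be told apart.

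The start windows of 6 members are shown first, because the pyrimidine tract at the start is the sequence feature these genes are known for. RefSeq promoter windows (GRCm38.p6, the same build as mm10) matched 64 of the 84 members. Each line gives 10 bases before the annotated start and 15 from it, 5′ to 3′, with the unbroken run of C and T from the start in capitals. They are Rpl15 (chr14:18270972-18270996, minus strand), Rpl35 (chr2:39005117-39005141, minus), Rps10 (chr17:27635230-27635254, minus), Rps6 (chr4:86857353-86857377, minus), Rpl38 (chr11:114668570-114668594, plus) and Rplp2 (chr7:141447641-141447665, plus).
Rpl15: agaaagccttCTTCCTTTCCTCTgg
Rpl35: ccgccctttcCTCTTTCTCTCgaac
Rps10: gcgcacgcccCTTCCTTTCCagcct
Rps6: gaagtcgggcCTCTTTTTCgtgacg
Rpl38: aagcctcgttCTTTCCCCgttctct
Rplp2: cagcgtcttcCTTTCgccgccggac

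A start of C followed without a break by C or T, 5 or more bases in all, was annotated for 13 of the 64 members, a share of 20.3%, and for 2.51% of all 32851 RefSeq promoters. A run of at least 8 such bases between 20 before and 30 after the start was found for 34 of 64 members (53.1%) and 19.0% of all promoters. Over the whole 300-base window and on both strands, CCGGAAG was found for 26 of 64 members (40.6%), against 8.86% of all promoters. GGGCGG was found for 40 of 64 (62.5%) against 35.7%, AAGATGGC for 6 of 64 (9.38%) against 2.75%, and TATAAA for 7 of 64 (10.9%) against 13.6%. CCGGAAG and AAGATGGC share the letters AAG and can overlap, and a match is only a description of the letters. A member with several annotated starts counted once, if any of them matched, and the 64 members have 76 promoters. All promoters were counted singly, so the members' shares can be raised beside theirs.

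Of the 84 members, 81 were at 1 TPM or more in both libraries, and these included all 77 main genes. The 3 others were the paralogs Rpl39l, Rpl10l and Rpl3l. Together the members held 4.26% of the Ensembl gene TPM in replicate 1 and 4.38% in replicate 2, or 4.32% ± 0.0877 (SD, n = 2). The median main gene stood at 483.6 and 497.9 TPM, where the median protein-coding gene at 1 TPM or more stood at 19.0 and 18.7. Ranked by mean TPM among protein-coding genes, 9 main genes were within the first 100 and 64 within the first 500, and the lowest, Rpl5, was at rank 3167.

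**Figure D1:**
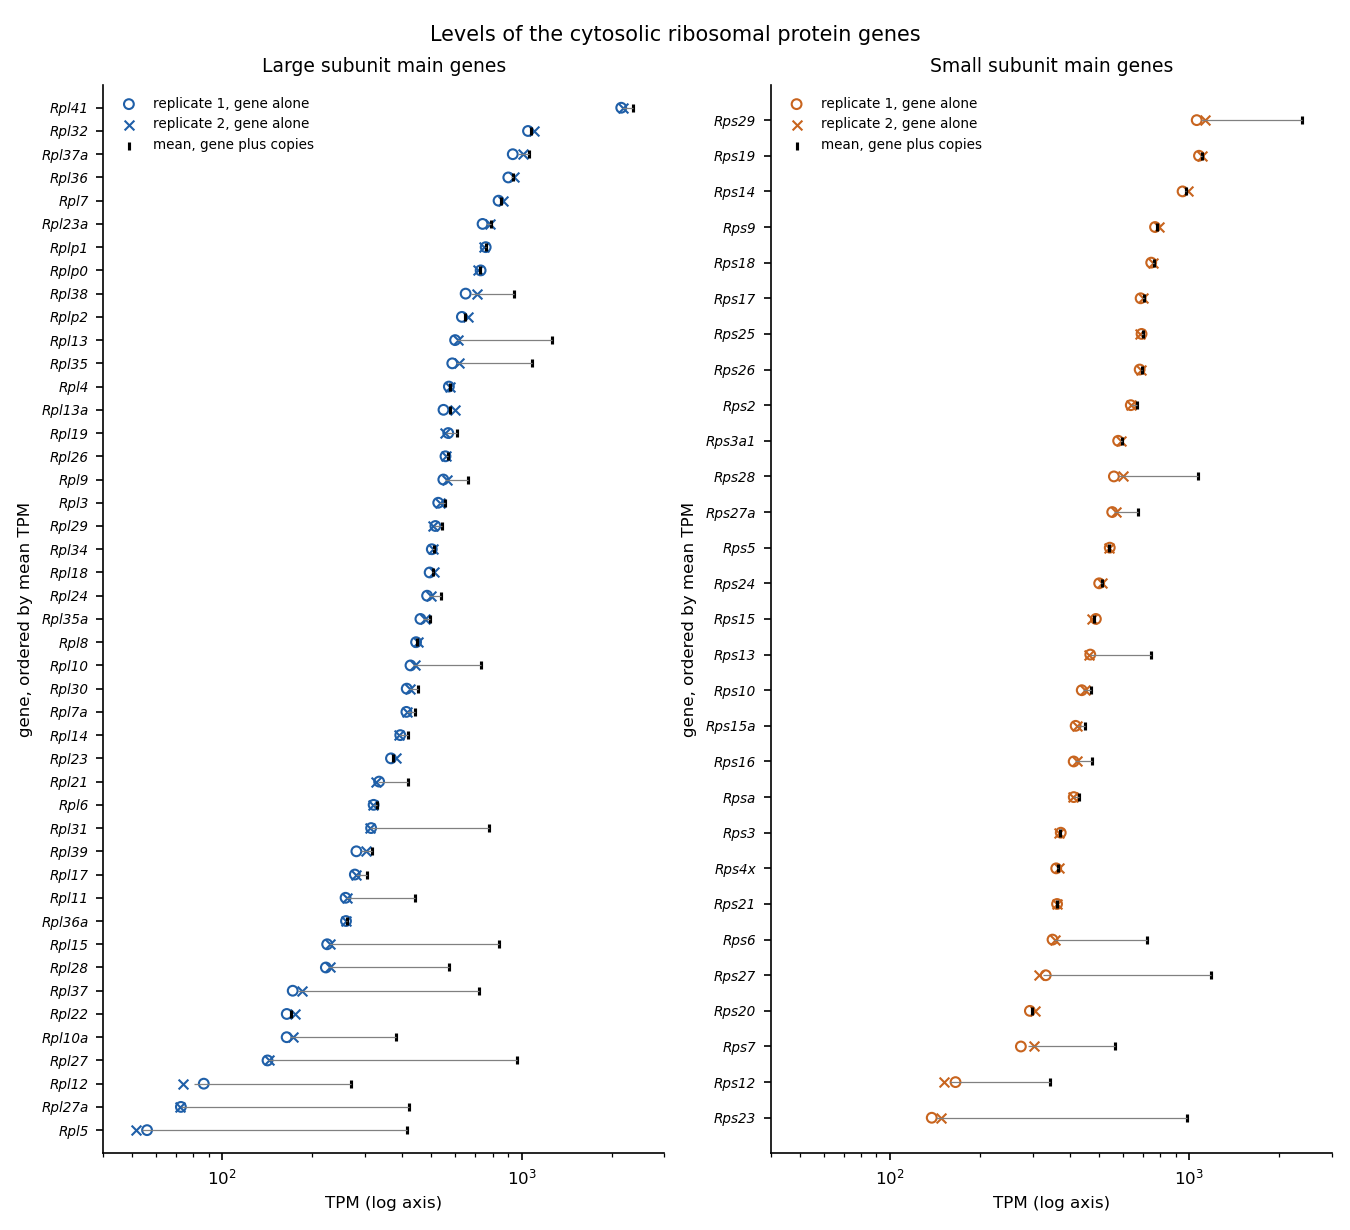
Level of 74 of the 77 main genes, with large subunit genes on the left and small subunit genes on the right, on a log axis of TPM. Open circles are replicate 1, crosses replicate 2, and black ticks the mean of the gene plus its copies elsewhere in the annotation; long grey lines mark Rps23, Rpl27, Rpl5 and Rpl27a at the bottom of the order, while the 2 libraries lie close together for each gene.

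In the large subunit the highest level was that of Rpl41 (chr10:128548114-128549305, minus strand), which encodes a very short basic peptide, with 2154 TPM in replicate 1 and 2180 in replicate 2. Rpl32 followed at 1051 and 1102 TPM, and Rpl37a, a zinc-binding protein, at 934.8 and 1008 TPM. Rpl36 had 903.3 and 940.9 TPM and Rpl7 had 838.0 and 866.4 TPM. Rpl41 stood apart from the rest in both libraries, since its lower interval bound in replicate 1 (2062 TPM) was above every other member's level. The lowest were Rpl5 at 56.1 and 51.4 TPM, Rpl27a at 72.7 and 72.4 TPM, Rpl12 at 86.8 and 73.8 TPM, Rpl27 at 141.7 and 142.9 TPM, and Rpl10a at 164.1 and 172.2 TPM. The highest large subunit gene was thus 38.4 times the lowest in replicate 1 and 42.4 times in replicate 2.

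The stalk proteins, which recruit translation factors to the large subunit, lay close together. Rplp1 had 759.1 and 750.7 TPM, Rplp0, which anchors the others to ribosomal RNA, had 730.1 and 717.6 TPM, and Rplp2 had 631.9 and 660.9 TPM. The deposited intervals of Rplp1 (719.9 to 756.8 TPM) and Rplp0 (695.9 to 724.3 TPM) overlapped in replicate 1. In replicate 2 they did not overlap (716.4 to 750.4 and 688.8 to 713.0 TPM). The interval of Rplp2 lay below both in each library (596.3 to 634.3 and 627.7 to 664.2 TPM). Rpl12, which binds at the stalk base beside Rplp0, was lower than Rplp0 in both libraries by the values above. Rpl11 and Rpl5 enter the ribosome together with 5S ribosomal RNA. Rpl11 had 258.2 and 261.5 TPM, above the 2 values of Rpl5 without overlap. With near-identical copies elsewhere in the genome added to each, Rpl11 had 435.4 and 444.0 TPM and Rpl5 had 426.6 and 404.2 TPM. The 9 genes listed for the tunnel exit had a median of 557.0 and 553.9 TPM, and ran from Rpl22 to Rpl23a.

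In the small subunit Rps29 (chr12:69157722-69159186, minus strand), a zinc-binding protein, had 1059 and 1129 TPM, and Rps19 (chr7:24884371-24889806, plus strand), known for its mutation in Diamond-Blackfan anaemia, had 1078 and 1099 TPM. The order of these 2 genes differed between the libraries, and their intervals overlapped in both. Rps14 had 950.3 and 992.8 TPM and Rps9 had 768.8 and 793.1 TPM. At the low end Rps23 (chr13:90922958-90924950, plus strand), which lies at the decoding centre, had 137.9 and 148.1 TPM and Rps12 had 165.6 and 151.4 TPM. Rps7 followed with 273.8 and 303.8 TPM, Rps20 with 293.5 and 304.6 TPM and Rps27 with 331.6 and 315.9 TPM. The highest was 7.82 times the lowest in replicate 1 and 7.63 times in replicate 2, a narrower range than in the large subunit.

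The medians of the subunits hardly differed. Main large subunit genes had a median of 471.5 and 486.2 TPM, and main small subunit genes 487.7 and 500.2 TPM. The difference of the median log2(TPM + 1), large minus small, was -0.049 in replicate 1 and -0.041 in replicate 2. Its sign turned with counts scaled to library size in place of TPM (0.044), and it reached -0.28 with means in place of medians and -0.24 with copies added to each gene. Across the 77 main genes TPM was lower at greater effective length, the length on which a fragment can start, with a Spearman rho of -0.40 in each library. Estimated counts went the other way with length (rho 0.32 and 0.31). Genes are not replicates, and length stands in the denominator of TPM, so these are descriptions only. By counts the order began with Rplp0 at 17750 and 20915 estimated counts, while by TPM Rplp0 was at place 14 of the main genes.

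Sets chosen by role or position gave the following levels. The 13 genes listed for Diamond-Blackfan anaemia, an inherited failure of red cell production, were all detected, with a median of 500.2 and 511.4 TPM. The 4 X-linked main genes lay below the median of the main genes: Rpl10, which acts in subunit joining, at 425.6 and 440.5 TPM, Rps4x at 359.4 and 365.8 TPM, Rpl39, a tunnel protein, at 280.7 and 302.2 TPM, and Rpl36a at 259.1 and 259.6 TPM. With near-identical copies added to every main gene, Rpl10 had 714.1 and 750.9 TPM. That is above the median with copies of 573.3 and 584.5 TPM, while the other X-linked genes stayed below it. The members lay on 19 chromosomes, with 14 on chromosome 7. Of ribosomal proteins whose names lie outside the symbol rule, Fau, a ubiquitin-like fusion with a small subunit protein, had 428.5 and 435.1 TPM and Rack1, a scaffold on the small subunit, had 362.0 and 364.1 TPM. Both were within the range of the main genes.

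Annotated copies of member sequence took up a large share of the TPM. Aligning all other annotated transcripts to the members' coding transcripts (at least 90% identity over at least 50% of the other transcript and 100 bases) gave 773 further genes, of which 758 are annotated as pseudogenes and 14 as protein coding. They belonged to 80 of the 84 members, with as many as 59 for Rpl21. Their sum was 12429 TPM in replicate 1 and 12507 in replicate 2, which is 30.9% and 30.4% of the members' own sum. With them the share of Ensembl gene TPM was 5.64% ± 0.0983 (SD, n = 2) in place of 4.32%, and the share of counts 1.84% in place of 1.55%. The sum was concentrated, since 290 copies had no count in either library, while the 10 highest held 55.8% and the 30 highest 92.5% of the copies' TPM.

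Sequence shows how close the highest copies are to their genes. Of the 26 copies at a mean of 100 TPM or more, 20 matched their member without a difference over the whole aligned stretch, and 17 held the member's entire coding sequence. Gm15500 (chr7:114705217-114706235, a transcribed processed pseudogene) shares all 894 coding bases of Rpl5 (chr5:107900502-107909005), and their first 60 are printed once because they are the same in both. Rpl37rt (chr5:115102923-115110268), also a transcribed processed pseudogene, differs from Rpl37 in 1 of 344 aligned bases, which is in capitals in coding bases 234 to 273. Rpl37rt had 532.1 and 553.9 TPM, above Rpl37 at 172.0 and 184.9 TPM.
Rpl5 and Gm15500: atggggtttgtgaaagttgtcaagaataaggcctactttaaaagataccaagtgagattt
Rpl37: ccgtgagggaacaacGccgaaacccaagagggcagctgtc
Rpl37rt: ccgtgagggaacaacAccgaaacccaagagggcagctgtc
A read that lies within an identical stretch cannot be placed by its sequence, so the division of estimated counts between gene and copy is uncertain for these genes. How the authors shared such reads is not given in the sources used here.

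Copies outweighed their gene mostly at the bottom of the order. In 16 main genes, 11 of the large and 5 of the small subunit, the copies together held more TPM than the gene, and 9 of the 10 lowest main genes were among them. Among the 10 highest main genes, Rps29 alone was, with its copies' TPM mostly on Gm14303, a short model. Rpl5 had 56.1 and 51.4 TPM while its copies had 370.5 and 352.8 TPM, nearly all on Gm15500 at 370.0 and 352.2 TPM. Rps23 had 137.9 and 148.1 TPM beside 824.9 and 852.0 TPM on copies, led by Rps23-ps1. Rpl27 had 141.7 and 142.9 TPM beside 821.1 and 829.4 TPM, mostly on Gm11518 and Rpl27-ps3. Rpl27a had 72.7 and 72.4 TPM beside 342.6 and 356.0 TPM, led by Gm7536. In each of these genes the copies held more than 4 times the TPM of the gene in both libraries.

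**Figure D2:**
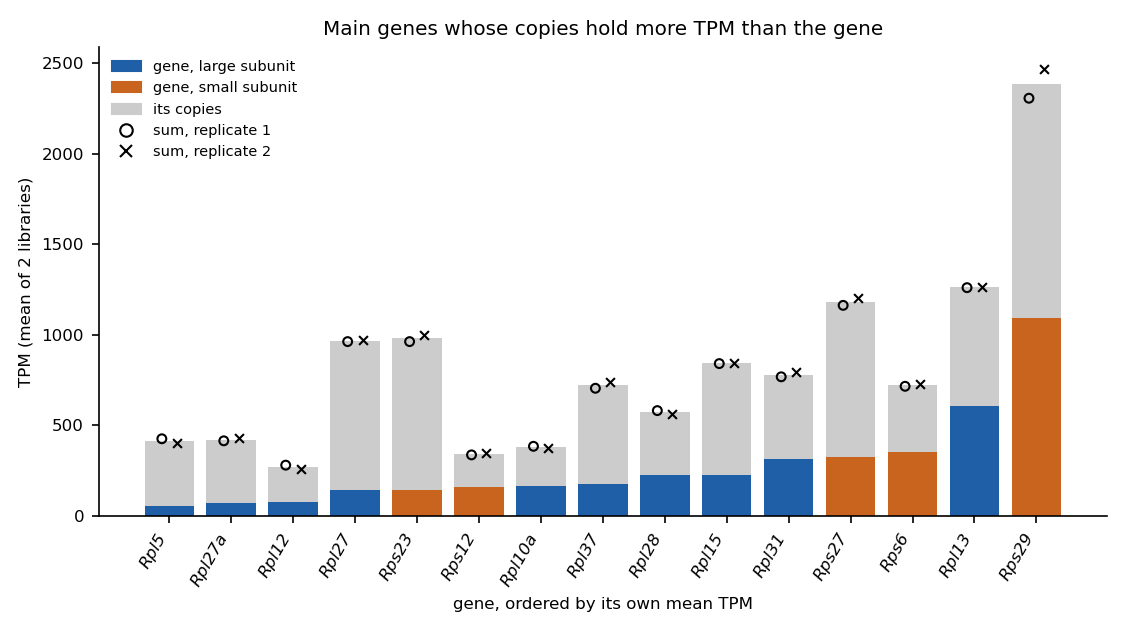
Mean TPM of 15 of the 16 main genes whose copies hold more TPM than the gene, with the gene in colour and its copies in grey stacked above it. Circles and crosses mark the sum in replicates 1 and 2; the sums of Rps23 and Rpl27 reach 981.5 and 967.5 TPM, while the genes alone stand at 143.0 and 142.3 TPM.

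The order of the genes changed when each was summed with its copies. Rps23 moved from place 73 of 77 to place 11, with 981.5 ± 26.4 TPM (SD, n = 2), and Rpl27 from place 74 to 13, with 967.5 ± 6.75 TPM. Rps27, which had the fewest counts of the main genes, moved from place 58 to 5, with 1183 ± 28.6 TPM. Its copy Rps27rt, annotated as protein coding, was higher than the gene in both libraries, at 830.0 and 885.7 TPM. Rps29 moved from place 2 to 1 with 2385 ± 113 TPM, since Gm14303, a model of 171 bases identical to part of its messenger RNA, had 1244 and 1335 TPM. TPM divides by length, so reads on so short a model add more TPM than they would on Rps29. A sum over models of unequal length is therefore not the level of 1 gene. Rpl5 moved from place 77 to 64 with 415.4 ± 15.8 TPM, and Rpl12 stayed at place 75 with 270.0 ± 15.6 TPM.

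The spread among genes was narrower for the sums. The SD of log2(TPM + 1) across the 77 main genes was 0.91 in replicate 1 and 0.93 in replicate 2 for the genes alone, and 0.67 and 0.68 with copies. The highest main gene was 14.2 and 14.1 times the lowest with copies, compared with 38.4 and 42.4 times without. The 49 main genes whose copies held under 10% of the gene's TPM, where the copies matter least, ran from 169.4 TPM for Rpl22 to 2167 TPM for Rpl41, with a median of 530.3 TPM and an SD of 0.64 on the log2 scale. The authors' intervals were widest in genes with high copies and few counts. The upper over the lower bound was 1.06 for the median main gene in each library, and 1.108 and 1.101 for all genes within the main genes' range of counts. The widest among main genes were Rps27 at 1.34, Rps12 at 1.26, Rpl12 at 1.21, Rpl5 at 1.17 and Rpl27 at 1.15 (means of both libraries). In each of them the copies held more TPM than the gene. They were also among the main genes with the fewest counts, and the parts of copies and of counts were not tested. Rpl39l reached 6.67 on its few counts. The deposited TPM lay above its own interval for 29 members in replicate 1 and 26 in replicate 2, as in Rplp0, whereas the posterior mean TPM, deposited as a second estimate, lay inside for all 84.

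By symbol alone, the 257 genes named as pseudogenes of a member (Rpl or Rps with -ps) held 11.4% and 11.1% of the members' TPM, and 60 of them were at 1 TPM or more in both libraries. The 3 highest were Rps23-ps1 at 820.0 and 846.6 TPM, Rpl15-ps3 at 613.8 and 613.1 TPM and Rpl31-ps8 at 451.9 and 476.2 TPM. Each was above its parent gene in both libraries, with Rpl15 at 224.2 and 229.9 TPM and Rpl31 at 314.4 and 311.2 TPM. Of the 5 pseudogenes that meet the symbol rule itself, Rps4l had 189.0 and 176.3 TPM and Rps12l1 had 146.8 and 165.7 TPM, and the others were under 8 TPM. Rps12l1 is identical to Rps12 over its 399 bases, and Rps12 was lower and Rps12l1 higher in replicate 2.

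The 7 paralogs fell into 3 kinds. By TPM of the whole gene, Rpl36al and Rpl22l1 were higher than their main genes, Rps27l and Rpl7l1 lower, and Rpl39l, Rpl10l and Rpl3l near or at 0. Rpl36al had 341.1 and 342.6 TPM and Rpl36a had 259.1 and 259.6, a difference of 0.40 ± 0.00267 in log2(TPM + 1) (SD, n = 2). Rpl22l1 had 184.4 and 204.1 TPM and Rpl22, whose protein is known to repress Rpl22l1, had 164.3 and 174.6 TPM, a difference of 0.19 ± 0.0416. In both pairs the deposited intervals of the genes did not overlap in either library. Rpl22l1 had fewer counts than Rpl22, 1696 and 2170 against 2982 and 3504, on a shorter effective length. Of the TPM of Rpl22l1, 24.6% and 29.6% lay on Rpl22l1-209, a transcript not classed as protein coding. Summed over protein-coding transcripts only, Rpl22l1 was lower than Rpl22 in both libraries.

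Rps27l, a target of p53, had 237.2 and 255.9 TPM, compared with 331.6 and 315.9 TPM for Rps27. The difference was -0.39 ± 0.126 in log2(TPM + 1) (SD, n = 2), but -2.26 with the copies of both genes added and 0.95 in counts scaled to library size. Rpl7l1, linked to ribosome assembly, had 69.7 and 73.8 TPM, and Rpl7 had 12.02 and 11.74 times as much. The coding sequences of the pairs are far less alike than those of genes and copies. Identity over the alignment was 54.5% for Rpl7 and Rpl7l1, 67.5% for Rpl22 and Rpl22l1, 73.3% for Rpl3 and Rpl3l, 76.1% for Rps27 and Rps27l, 84.8% for Rpl10 and Rpl10l, 85.3% for Rpl39 and Rpl39l and 87.9% for Rpl36a and Rpl36al. The longest run of identical bases in any pair was 38, in Rpl39 and Rpl39l. The first 60 coding bases of Rps27, Rps27l and Rps27rt show this contrast, with capitals at the bases where Rps27 and Rps27l differ.
Rps27: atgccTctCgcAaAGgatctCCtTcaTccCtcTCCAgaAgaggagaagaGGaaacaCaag
Rps27l: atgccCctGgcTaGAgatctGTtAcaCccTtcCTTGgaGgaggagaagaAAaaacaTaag
Rps27rt: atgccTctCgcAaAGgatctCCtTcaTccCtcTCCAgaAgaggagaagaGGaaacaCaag
Over the whole coding sequence of 255 bases, Rps27 and Rps27l differ at 61, of which 18 are in the stretch shown.

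**Figure D3:**
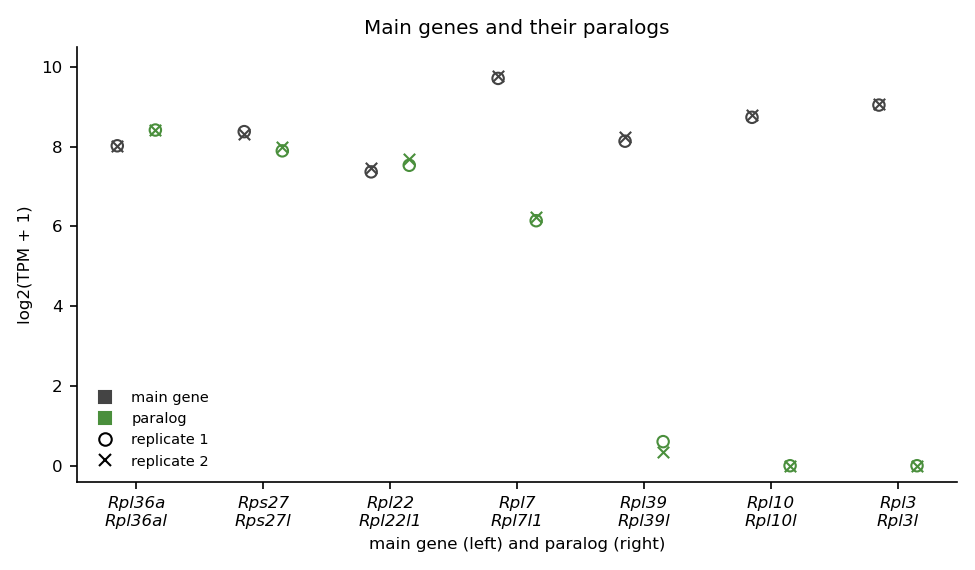
Levels of the 7 main genes (dark, left) and their paralogs (green, right) as log2(TPM + 1), with circles for replicate 1 and crosses for replicate 2. Rpl36al and Rpl22l1 lie above their main genes, Rps27l and Rpl7l1 below, and the other paralogs at or near 0.

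The other paralogs are known for restricted expression, Rpl3l in muscle and Rpl10l and Rpl39l mainly in testis. Rpl39l had 6 counts in replicate 1 and 3 in replicate 2, or 0.52 and 0.27 TPM. Rpl39 was higher by 540 times in replicate 1, with an exact Poisson interval on the paralog's counts of 249 to 1474 times, and by 1119 times in replicate 2 (379 to 5373). Rpl10l and Rpl3l had no count in either library. A floor of 3 counts per library equals 0.157 and 0.133 TPM for Rpl10l and 0.161 and 0.136 TPM for Rpl3l. Against that floor Rpl10 was 2707-fold and 3310-fold higher than Rpl10l, and Rpl3 3276-fold and 3921-fold higher than Rpl3l. The deposited upper bounds were 0.152 and 0.131 TPM for Rpl10l, but 0.408 and 0.344 TPM for Rpl3l. By these bounds the difference between Rpl3 and Rpl3l could be smaller than the floor gives.

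Most members had 1 dominant transcript. The tables hold 374 transcripts of the 84 genes, of which 19 are not in the annotation used for their class (GENCODE M21, later than the M4 of the files). Among the 82 members with reads, the leading transcript held 80% or more of the gene's TPM in both libraries in 54, and 50% or more in 78. Transcripts classed as protein coding held 95% or more in both libraries in 59 members. The smallest leading shares were in Rpl13a, at 38.2% in each library on a transcript outside that annotation, Rpl5 (Rpl5-201, 45.6% and 48.4%), Rps18 (Rps18-201, 47.49% and 51.71%, level in replicate 1 with the processed transcript Rps18-209 at 47.52%) and Rpl38 (48.2% and 49.9%), whose transcripts are all protein coding.

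In 5 members the leading transcript was not classed as protein coding. Rps20 had 92.0% of its TPM in each library on Rps20-201, classed as retained intron. Rpl35 had 84.7% and 84.6% on Rpl35-203, a processed transcript, and Rpl23 had 59.1% and 57.7% on Rpl23-204, also a processed transcript. Rpl12 had 62.3% and 59.8% on Rpl12-201, a class of transcript marked for nonsense-mediated decay, and Rpl13a led with the unmatched transcript above. In these 5 genes protein-coding transcripts held between 5.50% (Rpl35) and 41.4% (Rpl23) of the TPM. The protein-coding transcript of Rps20 is annotated at 3706 bases and the leading one at 582, and that of Rpl35 at 946 and 541. The part of transcript length in these shares was not tested. Rpl5 had 39.6% and 36.0% on Rpl5-205, a retained intron transcript.

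**Figure D4:**
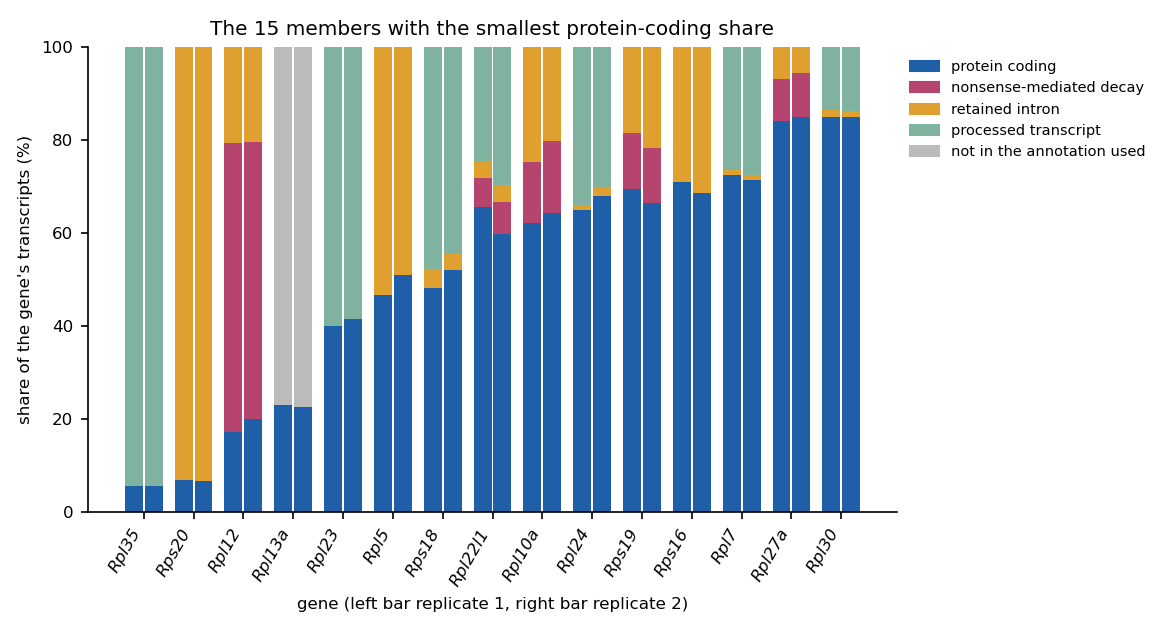
Share of each gene's TPM by transcript class, in percent, for the 15 members with the smallest protein-coding share, with replicate 1 as the left bar and replicate 2 as the right bar of each pair. Rpl35 and Rps20 have 5.50% and 6.81% on protein-coding transcripts in replicate 1, and the paired bars are alike.

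Transcript shares of Rpl22 differed between the libraries. Its long transcripts Rpl22-204 and Rpl22-208, of 2051 and 2048 bases, exchanged their estimated shares, with 23.5% and 8.09% in replicate 1 and 8.81% and 19.3% in replicate 2. How far reads can be told apart between these 2 transcripts was not tested, so the exchange may lie in the estimate alone. The spans of 30 members hold 58 annotated genes of small nucleolar RNAs, which guide the modification of ribosomal RNA, and 18 of these genes had a count. Rpl4 had the most with 5, none with a count, and Rpl13a had 4. The RNA had been selected above 200 nt. On the opposite strand, 15 members overlap another protein-coding gene, among them Rpl32, Rpl35, Rpl12 and Rpl5, and without a stated strand setting reads of such pairs cannot be told apart.

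The 2 libraries gave nearly the same levels, with a small shift of the members towards replicate 2. The median log2 ratio of TPM + 1, replicate 2 over replicate 1, was 0.03 over the main genes and -0.01 over all 15878 genes with a mean of 1 TPM or more. It was within 0.1 either way for 66 of 77 main genes and ranged from -0.23 (Rpl12) to 0.15 (Rps7). Of the 81 members with enough counts, a two-sided exact binomial test of the counts, adjusted over all genes tested, called 21, with 20 higher and 1 lower in replicate 2. Over all genes tested the same rule called 12.7%, with 6.67% higher and 6.01% lower in replicate 2. Since the test gains power with counts, a closer comparison is with genes at a mean of 50 TPM or more, of which 11.4% were higher and 9.19% lower. Of the members 24.7% were called higher. The members' median was 451.8 and 456.4 TPM, well above that limit, so power was not matched between these shares. The p-values measure counting error between 2 libraries, and say nothing of a condition.

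**Figure D5:**
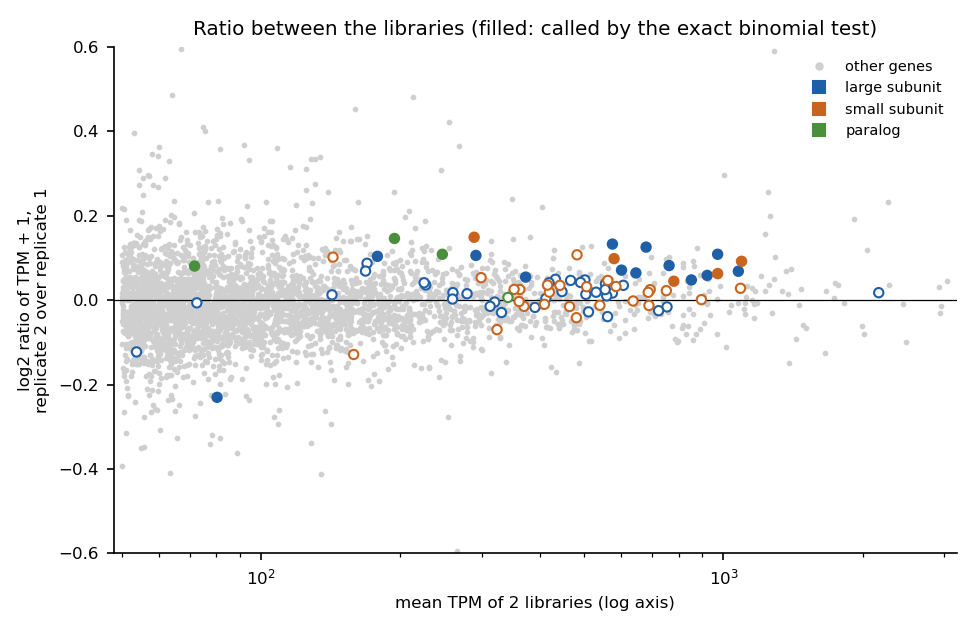
Log2 ratio of TPM + 1, replicate 2 over replicate 1, against mean TPM on a log axis, for the members (coloured, filled where called) and other genes at 50 TPM or more (grey, 8 of them outside the plotted range). Most filled points lie above 0 and within 0.15 of it, and Rpl12 is the filled point below 0.

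The largest called differences were still small. In normalized counts, Rps7 was higher in replicate 2 by 0.17 on the log2 scale, Rpl38 by 0.14, Rpl13a, Rpl22l1 and Rps27l each by 0.13, Rpl37a, Rpl39 and Rpl37 each by 0.12 and Rps28 by 0.11, while Rpl12 was lower (-0.16). Their adjusted p in the exact binomial test ran from 2.37e-08 for Rpl37a to 0.0444 for Rpl22l1. For Rps7 the levels were 273.8 and 303.8 TPM, with intervals of 252.7 to 278.1 and 284.4 to 306.7 TPM that did not overlap. The deposited intervals were disjoint for 10 members, all higher in replicate 2: Rps29, Rpl32, Rps14, Rpl37a, Rpl23a, Rpl38, Rpl13a, Rpl39, Rps7 and Rpl22l1. That is 12.3% of the 81 members at a mean of 1 TPM or more, beside 9.27% of all genes at that level in either direction. The share of all genes by direction, or of genes as high as the members, is not given here.

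Some of these calls depended on copies. With the counts of the copies added to each member, 24 members were called, 23 higher and 1 lower in replicate 2, and 18 of them were also called alone. Over all genes tested in that setting 12.7% were called in either direction. Rpl38, Rps28 and Rpl12 lost the call, and Rpl5 became the one called lower, with an adjusted p of 0.0478 in the exact binomial test. Rpl38 had 650.5 TPM in replicate 1 and 709.8 in replicate 2 while its identical copy Rpl38-ps2 went from 319.7 to 211.5 TPM, and for the sum the adjusted p of the exact binomial test was 0.50. In Rpl10 the copies Rpl10-ps1 (145.3 and 222.2 TPM) and Rpl10-ps3 (139.1 and 84.8 TPM) moved in opposite directions, while both match Rpl10 without a difference over the aligned stretch. Of the 21 called members, 14 had copies with under 10% of their TPM, and all 14 were higher in replicate 2. Choroid plexus genes were higher in that library as well (8 of 9 called) and meningeal and mesenchymal genes lower (5 of 9 called), with the sums given above. Their part in the shift of the members was not tested.

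Genes that serve the ribosome from outside its structure were taken as lists for comparison. Of 30 translation factors, all detected, 3 were called higher in replicate 2 and none lower by the exact binomial test. Their median log2 ratio of TPM + 1 was -0.02, and their median level 153.4 and 149.6 TPM. In either direction 12.7% of all genes were called, and 20.6% of those at a mean of 50 TPM or more. The highest factors were Eef1a1, which brings aminoacyl-tRNA to the ribosome, at 2969 and 2942 TPM, Eif1, which acts in start codon choice, at 1109 and 1136 TPM, and Eif5a, which relieves stalled ribosomes, at 924.7 and 918.3 TPM. Of these Eef1a1 was called higher, by 0.025 on the log2 scale of normalized counts, while its TPM was lower in replicate 2 (log2 ratio -0.013). The other called factors were Eif3e at 155.3 and 163.2 TPM and Eif2s3x at 71.0 and 75.6 TPM. Of 30 ribosome biogenesis genes, all detected, 3 were called higher and 4 lower, with a median log2 ratio of -0.03. Their median level was 59.5 and 55.07 TPM. Of all genes at a mean of 50 TPM or more, 20.6% were called in either direction. Npm1, a nucleolar chaperone, had 452.1 and 439.5 TPM, Rrp1 had 275.1 and 280.1 TPM, and Nop56, a core protein of small nucleolar particles, had 202.8 and 182.7 TPM and was called lower. Also called were Polr1b, of RNA polymerase I, at 15.7 and 12.5 TPM, Nolc1 at 43.94 and 40.03 TPM, Ebna1bp2 at 84.4 and 96.6 TPM and Fbl, the methyltransferase of those particles, at 65.6 and 72.5 TPM. The difference between these lists and the members was not tested.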

How the data were processed

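Total RNA-seq of 2 libraries was analysed from deposited gene and transcript tables, made on mm10 with GENCODE M4 according to the submitters' notes. For the aligner, the quantifier and the strand setting, the sources used here name nothing. The authors' estimated counts (expected counts) are reads assigned to each gene, and their TPM and posterior mean TPM share 1 fixed total per library. Deposited interval bounds are a signal in TPM units at a level that is not stated. The deposited percent is a transcript's share of its gene, and the deposited effective length is in bases.

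Names, classes, coordinates and coding sequences came from GENCODE M21 on the same build. Rounded counts entered a two-sided exact binomial test (SciPy 1.17.1) with TMM library sizes (edgeR 4.0.16), Benjamini-Hochberg adjusted at 0.05 over the 19687 genes reaching 10 counts in both libraries together, after tests on simulated data. DESeq2 1.42.0 size factors were an alternative. Log values used log2(TPM + 1). Detected means 1 TPM or more in both libraries. Copies were found with blastn 2.17.0 by a rule chosen after the values were seen, as was every result with copies. Paralogs were aligned with Biopython 1.88.

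Named genes were the 5 highest and 5 lowest main genes of each subunit, stalk genes, paralogs with their main genes, X-linked genes, up to 10 called genes by size, the widest intervals, the smallest leading transcript shares, the hosts of most small nucleolar RNAs, and the highest or called genes of the other lists. Genes named for copies, or for transcript shares that differed between libraries, were chosen after their values were seen. Members and lists were chosen with earlier results of these data known. Intervals and floors cover counting error only, since the reads carry no stated molecular identifiers. A few genes are not reported here by name, and their values stay in the counts and medians.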

Additional observations from a re-analysis of the deposited data

How the results depend on the processing

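The count of detected members (81), binomial calls (20 to 24), the median ratio between libraries, the number of members with 1 dominant transcript (54, with 43 to 78 over other share limits) and the interval width stayed within their spread or within 1.5 times in every alternative tried. Over all genes tested, the share called by the binomial test ran from 8.83% to 15.1% across the alternatives. Apart from the paralog differences, 32 alternatives left a value within its spread or within 1.5 times the count. Another 14 moved it and 1 turned its sign. For the 7 paralog differences 24 left it within its spread, 16 moved it and 2 turned its sign. The members' share of TPM (4.32%) was 1.55% in estimated counts, 4.21% with posterior mean TPM, 4.97% of protein-coding genes only and 5.64% with copies added. The large minus small subunit difference (-0.045) became 0.044 in counts scaled to library size, -0.28 with means, -0.11 in genes of 400 or more bases of effective length, -0.24 with copies added and -0.13 in members whose copies hold under 10%. Disjoint intervals rose from 10 to 16 members when replicate 2 was rescaled by the median ratio of all genes. No share over all genes is given here for that setting, so the rise cannot be read as a result about the members. The pseudogene share of the members' TPM (11.2%) was 7.74% in counts, 30.6% for copies found by sequence and 28.5% for copies of at least 98% identity over 80% of their length. The rho of TPM with length (-0.40) was -0.35 in the longer genes and -0.34 with copies added. Of the paralog differences, Rpl22l1 turned from 0.19 to -0.74 and Rps27l from -0.39 to 0.95 in counts scaled to library size, which are not per length. FPKM shares equal TPM shares and were not run, and the copy alternatives were chosen after seeing the data. No paired analysis was possible because there is 1 group. With 2 libraries the SD is poorly known, and no depth limits the main genes, the fewest counts being 1068 (Rps27), while Rpl39l, Rpl10l and Rpl3l are at or near the floor.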

Other observations

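Mitochondrial ribosomal proteins, which build the separate ribosome of mitochondria and are encoded in the nucleus, gave another view of the same libraries. All 77 protein-coding genes with a symbol of the form Mrpl or Mrps and a number were detected, with a median of 72.1 TPM in replicate 1 and 74.1 in replicate 2. They summed to 6871 and 6843 TPM and ran from Mrpl1 at 14.96 and 15.95 TPM to Mrps21 at 286.3 and 277.2 TPM. By the exact binomial test 3 were higher and 3 lower in replicate 2, with a median log2 ratio of TPM + 1 of -0.01. Over all genes tested 6.67% were higher and 6.01% lower. The mitochondrial genes are lower in level than the cytosolic members (medians over both libraries of 73.1 and 454.1 TPM), where the test has less power, so the calls of these lists cannot be set side by side. This list was chosen after seeing the data, and the difference between the 2 kinds of ribosome was not tested.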
